A study of Mus musculus with 2 samples.

Results

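Open internal promoters were defined as stretches of open chromatin at an annotated protein-coding start that lies well inside its gene. An interval of the replicate 1 list was kept when it overlapped an interval of the replicate 2 list. Its strongest summit had to lie within 1 kb of a transcription start site (TSS) of a protein-coding transcript that lies more than 5 kb 3′ of where the gene first starts (its most 5′ TSS). It also had to lie over 1 kb from the most 5′ TSS of every annotated gene. Of 19727 intervals shared by both replicates, 661 met the rule. They served 601 protein-coding genes in 662 pairs of interval and gene, because 1 interval served a pair of genes. The most 5′ TSS is called the first promoter below, and it was called open when an interval of each replicate overlapped the 1000 bp on either side of it. A missing interval means that none was called at this threshold, not that the chromatin was closed.

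The data are ATAC-seq peak lists of primary hematopoietic stem cells from male C57BL/6J mice aged 5 to 6 weeks, with 1 group, 2 replicates and 50000 cells per library. ATAC-seq marks DNA that the transposase Tn5 can reach, which is mostly DNA free of nucleosomes. The labels call the libraries biological replicates but give them the same donor identifier, and only replicate 1 carries instrument names (HiSeq 2000 and NextSeq 500), so animal and instrument effects cannot be told apart from the replicates. There is no second group, so every comparison is a description within these libraries, without a p-value.

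Many mammalian genes have several promoters. A transcript that starts inside the gene may differ only in its 5′ untranslated exon, or it may begin past the usual start codon and give a shorter protein with another N terminus. Such internal promoters are known to give cells of different tissues and stages their own forms of the same gene, as with the somatic and oocyte forms of Dnmt1 or the long and short tropomyosins.

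The thresholded lists held 25141 intervals in replicate 1 and 24495 in replicate 2; read depth is unknown. The deposited signal value of an interval is the peak caller's own score of height, and percentiles below are ranks within the same list. Across the 661 members the log2 signal values of the replicates correlated with a Pearson coefficient of 0.79 and a Spearman coefficient of 0.83, a description over intervals that share their libraries. An interval of each replicate lay within 1 kb of some start in 9329 of all 21938 protein-coding genes (42.5%). For the cell type label, 7 of 12 stem cell markers were open by this rule (Kit, Cd34, Meis1, Hlf, Runx1, Lmo2 and Gata2), against 0 of 4 erythroid, 0 of 4 granulocyte and monocyte and 0 of 4 T and NK cell markers. Pax5 was open among 4 B cell markers, and Cdh5, Col1a1 and Pdgfrb among 4 stromal and endothelial ones, the highest share of these lists. The part of other cells in the results was not tested.

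The sequences below show what lies under the summits of 8 members: 5 of the strongest by rank, and 3 blood or enzyme genes chosen after their values were seen. Each is the stretch of the 100 bp on either side of the strongest replicate 1 summit that lies outside annotated exons, read 5′ to 3′ on the gene's strand from the RefSeq copy of GRCm38 (mm10). Capitals mark matches to any of 13 short motif strings, on either strand, given with the motif results. The internal promoter of Scp2, which codes for a sterol carrier protein, is at chr4:108071420-108071516 on the minus strand, and that of Ankef1, an ankyrin repeat and EF-hand protein, at chr2:136532076-136532211 on the plus strand. Those of the signalling adaptor Grb2 and of Platr25 are at chr11:115699535-115699634 on the minus strand and chr13:62684946-62685094 on the minus strand. The zinc finger gene Zfp458 is shown at chr13:67269140-67269270 on the minus strand, with no motif match and no CpG. The DNA methyltransferase gene Dnmt1 is at chr9:20952980-20953069 on the minus strand, the ETS factor gene Ets1 at chr9:32695854-32696021 on the plus strand and the stem cell factor gene Lmo2 at chr2:103969439-103969527 on the plus strand. The Ets1 stretch held 20 CpGs and several GC boxes beside a CCAAT box, and the Scp2 stretch 14 CpGs and 1 GC box.
Scp2: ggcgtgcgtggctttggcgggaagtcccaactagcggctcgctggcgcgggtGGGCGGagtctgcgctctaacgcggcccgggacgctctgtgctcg
Ankef1: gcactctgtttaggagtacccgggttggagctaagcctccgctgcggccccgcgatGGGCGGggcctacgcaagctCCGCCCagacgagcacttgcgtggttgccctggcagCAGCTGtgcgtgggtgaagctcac
Grb2: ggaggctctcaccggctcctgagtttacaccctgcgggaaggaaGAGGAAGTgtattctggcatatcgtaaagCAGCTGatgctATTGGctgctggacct
Platr25: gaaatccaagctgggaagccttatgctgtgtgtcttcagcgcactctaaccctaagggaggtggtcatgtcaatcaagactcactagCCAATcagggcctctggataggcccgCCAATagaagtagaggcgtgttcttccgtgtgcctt
Zfp458: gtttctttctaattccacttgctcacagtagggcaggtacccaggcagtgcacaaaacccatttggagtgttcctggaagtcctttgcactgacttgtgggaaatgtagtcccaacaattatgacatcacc
Dnmt1: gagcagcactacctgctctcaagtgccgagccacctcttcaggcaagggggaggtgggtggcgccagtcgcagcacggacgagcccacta
Ets1: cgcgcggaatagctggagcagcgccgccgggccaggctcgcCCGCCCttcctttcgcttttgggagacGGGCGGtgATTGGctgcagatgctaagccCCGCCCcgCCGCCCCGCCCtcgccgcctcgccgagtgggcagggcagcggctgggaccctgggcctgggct
Lmo2: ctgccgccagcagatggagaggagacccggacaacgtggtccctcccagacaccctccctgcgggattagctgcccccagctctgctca

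Open chromatin was dense at internal starts. Of the 4977 genes with at least 1 eligible internal start (over 5 kb inside the gene and over 1 kb from every first start), 601 (12.1%) had an open internal promoter. Counted by start, 1296 of 9840 eligible starts (13.2%) had a shared interval summit within 1 kb. Sequence within 1 kb of these starts held 658 shared summits in 15.1 Mb, or 43.5 per Mb, against 2456 in 473 Mb, or 5.19 per Mb, in the rest of the same genes, a ratio of 8.39. Starts in CpG-rich sequence (GC of at least 50% and an observed to expected CpG ratio of at least 0.6 within 250 bp of the start) were open in 681 of 1391 cases (49%), and the other starts in 615 of 8449 (7.28%).

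The summits sat where promoter summits usually sit, just upstream of the start. Within 100 bp of the nearest internal start lay 394 of 661 summits (59.6%, exact 95% interval 55.8 to 63.4, which covers counting only), beside 61.2% of 7529 intervals at first promoters. Upstream of the start lay 72.3% of internal and 66.5% of first promoter summits. The distances are not alike. Internal summits were measured from the nearest of all internal coding starts in reach, first promoter summits from a gene's most 5′ start alone. This can make internal summits look closer to their start. In 608 of 662 pairs (91.8%) the summit lay in an intron of transcripts that start elsewhere, and in 53 in an exon. The internal start was a median of 22.2 kb downstream of the first, from 161 pairs at 5 to 10 kb to 89 beyond 100 kb.

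**Figure D1:**
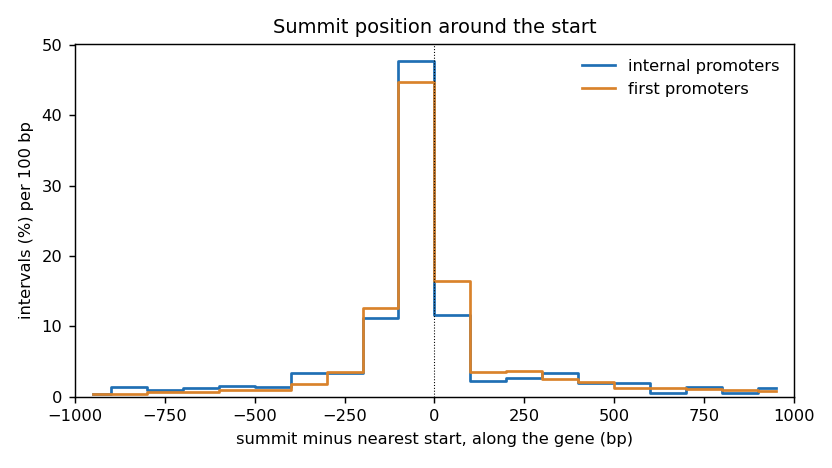
Percent of intervals (y axis) by the distance of the strongest summit from the start in 100 bp bins (x axis, negative values upstream). Internal promoters (blue) are measured from the nearest internal start, and first promoters (orange) from a gene's most 5′ start. Both lines peak in the bin from 100 bp upstream to the start, with 47.7% of internal and 44.6% of first promoter intervals.

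The first promoter was open as well in a minority of these genes. It was open in both replicates in 202 of 601 genes (33.6%, 29.8 to 37.5), in 1 replicate in 53 (8.82%), and in neither in 346 (57.6%, 53.5 to 61.6). The background was 40% of all 4977 genes with an eligible internal start and 38.3% of all 21938 protein-coding genes. In the eligible genes without an open internal promoter it was 40.9% (39.4 to 42.4). With the less strict lists it was open in both replicates in 54.6% and called in neither in 229 of the 601 genes (38.1%). The same lists gave 58.5% and 35.0% over all eligible genes and 54.0% and 40.6% over all protein-coding genes, so these shares lie near the background.

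Of the 346 genes whose first promoter was not called, 111 had another annotated start more than 2 kb upstream of their most upstream member, and in 8 of these (7.21%) such a start had an interval in both replicates. Where the first promoter was open in both replicates, this held for 16 of 67 genes (23.9%). The other start had only to lie over 1 kb from the first, so the interval of an open first promoter can reach it as well. This share is therefore raised by construction and cannot be compared with the one before. Among the 8 is Arhgef3, a guanine nucleotide exchange factor gene, whose next open start lay 97.9 kb upstream of the member. Open first promoters were more often shared with a neighbour. The first start lay within 1 kb of the first start of another protein-coding gene in 62 of 229 pairs with an open first promoter (27.1%), against 24 of 373 with none (6.43%). Over all eligible genes the same shares were 21.8% and 5.19%.

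The label of internal depends on which transcript is taken as the main one. The annotation can mark several transcripts of a gene as its reference (principal) protein-coding form, and any of them counted. In 303 of 662 pairs (45.8%) the reference transcript started at the open internal promoter and not at the first, in 178 (26.9%) only at the first, in 113 (17.1%) at both and in 68 (10.3%) elsewhere. In 108 pairs (16.3%) the first start carried no protein-coding transcript at all. Trim28, a corepressor of retroviral elements, is such a case: its open start lay 25.04 kb downstream of a noncoding first start, with signal values of 8.06 and 5.53 at the interval on it. Trim28 was picked as an example and had 2 members, with summits 0.797 kb apart.

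Among all eligible genes, an open internal promoter was found in 315 of 1003 genes (31.4%, 28.5 to 34.4) whose reference transcript starts only internally, and in 151 of 2793 (5.41%, 4.60 to 6.31) whose reference transcript starts only at the first promoter. The first promoter was open in both replicates in 26.3% (21.6 to 31.6) and 46.4% (38.2 to 54.6) of these genes. Unlike the classes of pairs above, these classes of genes count any eligible internal start, whether or not the open promoter lies there. Compared within these classes of genes, the lower share of open first promoters in genes with an open internal promoter held in 2 of 4. With the reference start internal only, the share was 26.3% with and 22.8% without an open internal promoter; with reference starts at both places it was 38.7% of 119 genes against 24.3% of 882. With the reference start at the first promoter only, it was 46.4% against 52.3%, and with it elsewhere 18.8% of 16 genes against 22.0% of 164.

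**Figure D2:**
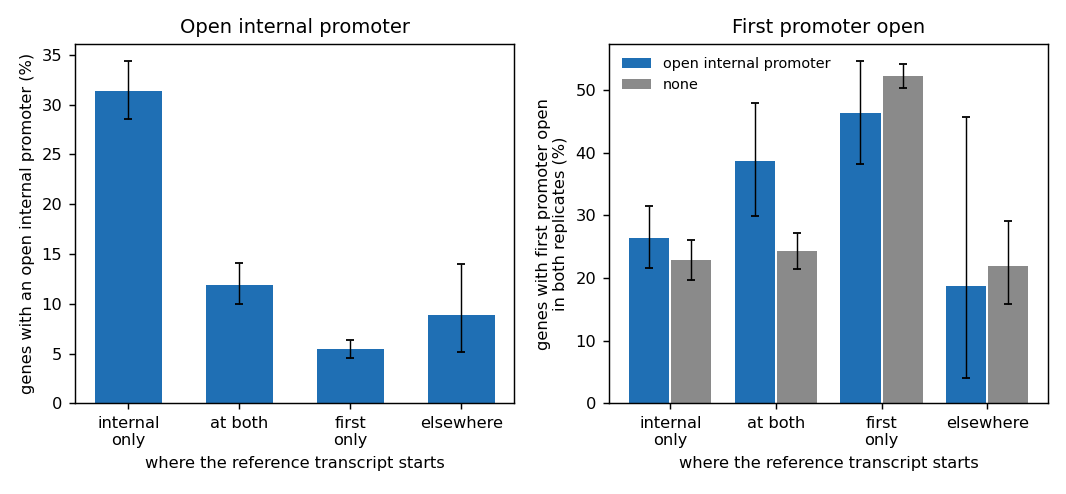
Left, percent of eligible genes with an open internal promoter (y axis) by where the reference transcript starts (x axis); right, percent with the first promoter open in both replicates, for genes with an open internal promoter (blue) and without (grey). Bars are shares with exact 95% intervals; the left bars run from 5.41% (first only) to 31.4% (internal only), and the blue bar is the higher of the pair for internal only and for both places, and the lower for the other classes.

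Where both promoters were open, the first more often had the higher signal value. Of 229 such pairs the first promoter had the higher signal value in both replicates in 118 (51.5%, 44.9 to 58.2), the internal one in 71 (exact interval 25.1% to 37.4%), and the order differed between the replicates in 40 (17.5%). Without the pairs whose first start is shared with another gene, the internal one was stronger in 51 of 167 (30.5%). When the reference transcript started only at the internal promoter, the internal one was the stronger in both replicates in 20 of 84 pairs (23.8%, 15.2 to 34.3). With the reference start only at the first promoter this was 30 of 80 (37.5%, 26.9 to 49.0). With reference starts at both it was 19 of 48 (39.6%, 25.8 to 54.7), and the exact intervals of these classes overlap. The first promoter value is that of the strongest interval touching its window, the internal value that of the member alone. The 229 pairs come from 202 genes, so a gene with several members counts more than once. Both can favour the first promoter by construction.

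**Figure D3:**
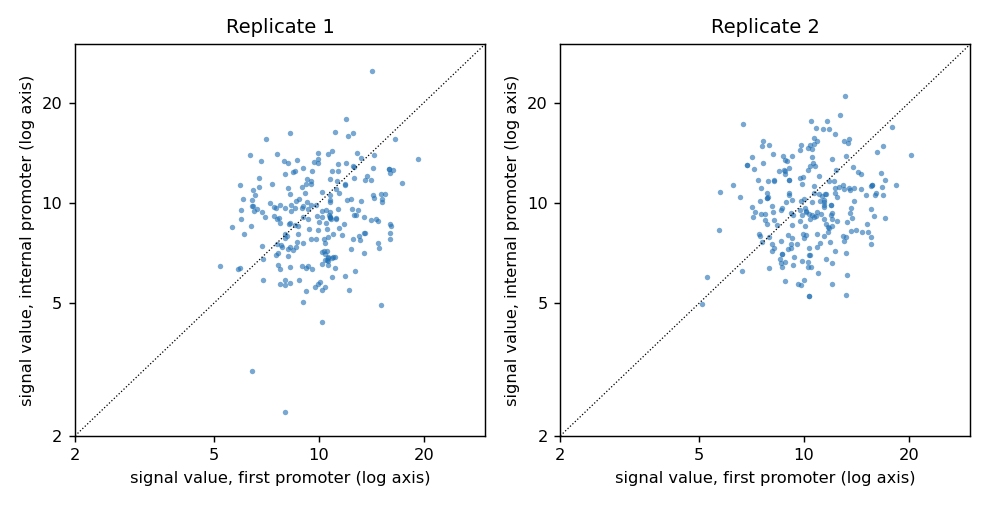
Signal value of the internal promoter (y axis, log scale) against that of the first promoter of the same gene (x axis, log scale) in replicate 1 (left) and replicate 2 (right), 1 point per pair, 229 pairs with both open. Points above the dotted line of equal values have the stronger internal promoter; 71 pairs lie above it in both replicates and 118 below.

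The strongest internal promoters without a called first promoter were picked by their mean rank. Their place near the top of both lists follows from this choice. Ankef1 had signal values of 17.0 in replicate 1 and 16.3 in replicate 2, at the 99.2 and 97.7 percentiles, 30.4 kb inside the gene. Zfp458 gave 16.1 and 16.3, and Aqr, a spliceosome helicase gene, 15.2 and 16.6. All 3 are at the reference transcript's start, and none had a first promoter interval even in the less strict lists. The first starts of Ankef1 and Aqr carry no protein-coding transcript.

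Lman1, which codes for a cargo receptor between the endoplasmic reticulum and the Golgi, had 16.8 and 14.9. The receptor gene Gpr35 had 14.2 and 16.1, and Atp6v1h, a subunit gene of the vacuolar proton pump, 13.9 and 15.8. The less strict lists held the first promoter of Atp6v1h at 4.91 and 6.18, below the internal values. That first start lies within 1 kb of the first start of another protein-coding gene. Wdr17 (14.7 and 17.4) and 5730480H06Rik (13.8 and 16.03) were also among the 10 of highest rank, as was Scp2. The first start of 5730480H06Rik is noncoding.

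Scp2 had a pair of open internal promoters 47.2 kb apart. The gene is known to make a long form with a thiolase domain and a short form that is the sterol carrier alone. The downstream promoter, 73.6 kb inside the gene, serves a transcript of 143 residues and had signal values of 13.8 and 17.5. The other, 26.5 kb inside, is the reference start of the longest form of 547 residues and had 12.3 and 11.8. The most 5′ start had no interval in any list of either replicate used here.

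The strongest internal promoters with an open first promoter had the higher value at the internal start in 9 of 10 genes, in both replicates. Platr25 had the highest mean rank, with 24.9 and 20.9 at the internal and 14.2 and 13.1 at the first promoter; the 31 bases at its internal summit occur at 2 places in the genome, which a read of that length cannot tell apart. Grb2 had 16.2 and 17.2 internally, 9.06 kb inside the gene, against 8.26 and 6.70. Lcmt1, which methylates the phosphatase PP2A, had 15.6 and 15.3 against 7.03 and 7.63.

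The RAF kinase gene Araf had 17.9 and 16.7 against 12.0 and 11.3, with a noncoding first start 50.7 kb upstream. Cast, the gene of the calpain inhibitor calpastatin, had 15.9 and 16.1 against 12.1 and 12.3. Ccdc77, Ankrd24, Zfand6 and Trip4 ranged from 13.2 to 18.3 internally and from 9.95 to 12.7 at the first promoter. The exception was the chromatin remodeller gene Chd8, with 15.6 and 16.9 internally against 16.5 and 17.9; its internal start carries an annotated coding stretch of only 22 residues, against 2582 in the longest form. These genes were picked for their high internal rank, so their order is a description only. In Lcmt1, Ccdc77, Ankrd24 and Trip4 the first start lies within 1 kb of the first start of another protein-coding gene. The first promoter value of these genes cannot be told apart from that of the neighbour.

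As a set, the internal promoters ranked between first promoters and the open regions inside genes. The median signal value was 9.19 in replicate 1 and 9.87 in replicate 2, against 10.2 and 10.8 at 7530 first promoter intervals and 8.63 and 9.76 at 4859 shared intervals in gene bodies over 1 kb from every start. The mean percentile over both replicates had a median of 54.6, against 67.0, 50.3 and 57.4 for all shared intervals. Median widths were 522, 598 and 448 bp, and more than 1 summit was listed in 38.3%, 46.3% and 22.5%.

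**Figure D4:**
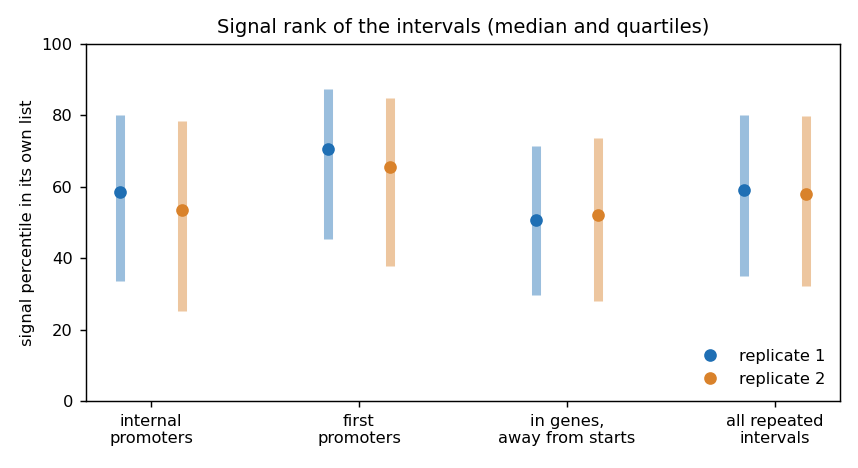
Percentile of the signal value within its own list (y axis) for 4 sets of shared intervals (x axis) in replicate 1 (blue) and replicate 2 (orange); points are medians and bars run from the lower to the upper quartile. Internal promoters have medians of 58.7 and 53.6 and first promoters of 70.5 and 65.7, with bars that overlap.

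Fewer internal than first promoters were CpG-rich. The sequence within 250 bp of the summit was CpG-rich in 308 of 661 members (46.6%, 42.7 to 50.5), against 78.8% at first promoters and 2.45% inside genes away from starts. The share was 67.3% (204 of 303) where the reference transcript started only at the internal promoter and 25.3% (45 of 178) where it started only at the first. CpG-rich members had a median rank of 59.9 and the others of 52.7.

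The motif content of the members also lay between these sets for the promoter boxes, and differed with CpG content. Each motif was counted as present when its letters occurred on either strand of the sequence within 100 bp of the summit; no string contains another, but matches may overlap. The GC box GGGCGG, bound by SP and KLF factors, was in 44.5% of members, 61.8% of first promoters and 9.26% of gene body intervals, and among CpG-rich windows in 65.9% of members and 68.3% of first promoters. The CCAAT box (CCAAT), bound by NF-Y, was in 26.6%, 39.6% and 19.3%. The ETS string CCGGAAG was in 8.77%, 18.02% and 2.90%, and in 14.9% and 20.7% of the CpG-rich windows.

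The AP-1, RUNX and PU.1 strings were more common in the members that were not CpG-rich, while the ETS string, at 3.40% of them, was less common. In the 308 CpG-rich members the strings of AP-1, RUNX and PU.1 occurred in 2.27%, 0.649% and 0.974%. In the other 353 windows the AP-1 string TGANTCA occurred in 11.9% (8.71 to 15.7), against 5.19% (4.16 to 6.398) of first promoter windows of the same kind and 10.7% of gene body ones. The RUNX string TGTGGTT occurred in 8.50%, 6.13% and 17.0%, and the PU.1 string GAGGAAGT in 9.07%, 6.57% and 13.1%. Over all members the GATA string AGATAAG was in 1.36%, the E-boxes CAGCTG and CACGTG in 13.9% and 5.45%, the NRF1 string GCGCATG in 2.72%, the YY1 string AAGATGG in 4.24%, the CRE string TGACGTCA in 2.42% and the TATA string TATAAA in 2.72%. At first promoters these were 0.757%, 9.93%, 8.41%, 5.92%, 5.67%, 3.63% and 2.67%. A match is a string of letters, not a bound site.

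Most of these promoters served an annotated transcript for a protein as long as the gene's longest. The internal start lay upstream of the gene's most 5′ coding start in 353 pairs (53.3%) and downstream of it in 309 (46.7%). A coding transcript without a 5′ incomplete tag was at the internal start in 627 pairs. Of these, 382 (60.9%) reached the length of the gene's longest protein. That share was 87.0% for starts upstream of the first coding start and 27.4% for those downstream. Downstream, the median internal protein had 87.1% of the longest, and 74 of 274 (27.0%) were under 50%. Upstream, 27 of 353 (7.65%) were under 50%. Tags for an incomplete 3′ end were not read, so short lengths can come from incomplete transcripts. A start of the best transcript support level, 1, was in reach in 486 pairs (73.4%), and in 35 (5.29%) every start in reach was tagged as 5′ incomplete.

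Several genes had more than 1 open internal promoter. There were 53 genes with 2 and 4 with 3 (Nfyc, Pde4d, Slc3a2 and Stx4a). In 28 of these 57 the outermost summits were over 5 kb apart, and in 23 they lay within 1 kb, so that neighbouring intervals can belong to the same start. Nfyc, a subunit gene of the CCAAT-binding factor, had 13.8 and 15.9 at an interval 15.9 kb inside the gene and 10.8 and 10.7 at another 5.87 kb inside. Pde4d, a cyclic AMP phosphodiesterase gene known for many promoters, had its members spread over 294 kb. Nav2, Nrg1 and Mrtfa had pairs 287, 91.0 and 59.5 kb apart.

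Of 63 listed blood transcription factor genes, 29 had an eligible internal start and 9 of these (31.03%) had an open internal promoter, beside the 12.1% of all eligible genes. The list is small and was chosen with earlier results known. The first promoter was open in both replicates in 5 of the 9 and in neither in 4. Mef2c, a lymphoid and myeloid factor gene, had the strongest of them, 12.3 and 13.9, at a start 68.3 kb inside, with no first promoter interval in any per-replicate list. The reference transcript of Mef2c starts only at the first promoter, and the internal start lacks transcript support level 1. Its longest coding transcript has 205 of 484 residues and shares a coding start with the first promoter. Ets1 had 9.65 and 8.08 at the start of its reference form, while its noncoding first start appeared only in the less strict lists, at 6.00 and 5.64.

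Lmo2, a partner of TAL1 and GATA2 in stem cells that is known for a distal and a proximal promoter, had 6.84 and 9.63 at the proximal start 11.5 kb inside, and no interval at the distal one. Pax5, the B cell commitment factor gene, had 8.17 and 8.75 at an interval 577 bp upstream of an internal start and none at its first promoter; it is also the B cell marker that was open. Spi1, which codes for PU.1, was open at both: 7.49 and 8.91 at its main promoter, and 7.81 and 7.70 at an annotated start 14.4 kb upstream, a stretch where a known enhancer of the gene lies. The order of these values differs between the replicates.

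Satb1, a chromatin organiser, had 8.05 and 9.40 internally against 6.09 and 8.15, and Elf1 6.39 and 8.56 against 5.96 and 8.34. In both genes the internal value was the higher in each replicate, but the ranges over the replicates overlap. Tcf4, an E protein gene, and Zbtb20 were the other way round, with 8.09 and 7.82 against 11.0 and 9.25, and 7.01 and 6.997 against 10.4 and 10.4. The first start of Zbtb20 is noncoding, and that of Elf1 lies within 1 kb of the first start of another protein-coding gene.

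Among 16 chromatin enzyme genes with an eligible start, 3 (18.8%, beside 12.1% of all eligible genes) had an open internal promoter; this list and those below are small as well and were chosen in the same way. Dnmt1, the maintenance DNA methyltransferase gene, had 12.2 and 12.0 at the promoter known for its somatic form, with the full 1620 residues, and no interval in any per-replicate list at the first start 6.91 kb upstream, which is known for the oocyte form. The histone deacetylase gene Hdac4 had 13.1 and 12.7 at its reference start, also without an interval at its first start, which is noncoding. Smarca2, a catalytic subunit gene of the BAF remodelling complex, had 9.42 and 7.84 at a start for a short form (296 of 1601 residues), against 6.85 and 9.98 at its first promoter, in opposite order in the replicates.

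Among 14 receptor and signalling genes with an eligible start, 4 (28.6%, beside the same 12.1%) had an open internal promoter. Abl1, a tyrosine kinase gene with a known pair of alternative first exons, was open at both, with 7.31 and 7.89 internally and 14.8 and 15.6 at the first. Cd47, the receptor gene that signals against phagocytosis, had 5.98 and 5.66 at the start of its reference form, near the bottom of both lists, against 10.9 and 9.82 at a first promoter 54.8 kb upstream. The kinase gene Syk had 9.54 and 8.88 internally and a first promoter interval in replicate 1, at 6.24. In replicate 2 the less strict list alone held the first promoter of Syk, at 5.59. Arhgef3 had 12.3 and 11.8, 221 kb inside, and its first promoter was only in the less strict lists, at 5.67 and 4.83.

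Of 5 imprinted genes with an eligible start, 3 (60%, beside the same 12.1%) had an open internal promoter, with signal values of 8.30 or less. Gnas, whose first start is known for the neuroendocrine protein NESP55, had 2 neighbouring intervals at the start of its G protein alpha subunit form, 43.4 kb inside: 7.19 and 7.11, and 6.00 and 5.87. Its first promoter had an interval only in the less strict list of replicate 2. Grb10, an adaptor of insulin signalling, had 7.59 and 8.30 with no first promoter interval. Impact had 6.50 and 6.37, with a first promoter interval at 9.41 in replicate 1. In replicate 2 the less strict list alone held the first promoter of Impact, at 7.58.

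Of 22 listed genes with textbook internal promoters and an eligible start, 8 (36.4%, beside the same 12.1%) had one open. Epb41, a red cell membrane skeleton gene, had 9.84 and 11.7 internally against 7.75 and 7.88 at its first promoter. The first start of Epb41 lies within 1 kb of the first start of another protein-coding gene. Ank1, the erythroid ankyrin gene, had 13.4 and 11.9 at a start 121 kb inside that is tagged as 5′ incomplete and shares its summit 31-mer with another place in the genome. Tpm1 had 9.44 and 7.30 at the start of its short tropomyosins (251 of 326 residues) and no first promoter interval. Crem, whose internal promoter is known for the repressor ICER, had 8.93 and 9.41 against 9.32 and 10.1.

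The phosphodiesterase gene Pde4b had 9.83 and 13.2 at an interval 343 kb inside and 5.29 and 5.02 at another 483 kb inside, with no first promoter interval. In Pde4d the 3 members lay 1183, 1236 and 1477 kb inside, with 8.03 and 10.6, 8.31 and 8.46, and 8.87 and 8.99. The start at 1183 kb is tagged as 5′ incomplete. The first start of Pde4d, which is noncoding, had an interval in replicate 2, at 8.42. In replicate 1 the less strict list alone held it, at 7.03. The glucocorticoid receptor gene Nr3c1 had 6.72 and 7.63 near the starts of its full-length form, without a first promoter interval in the thresholded lists.

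**Figure D5:**
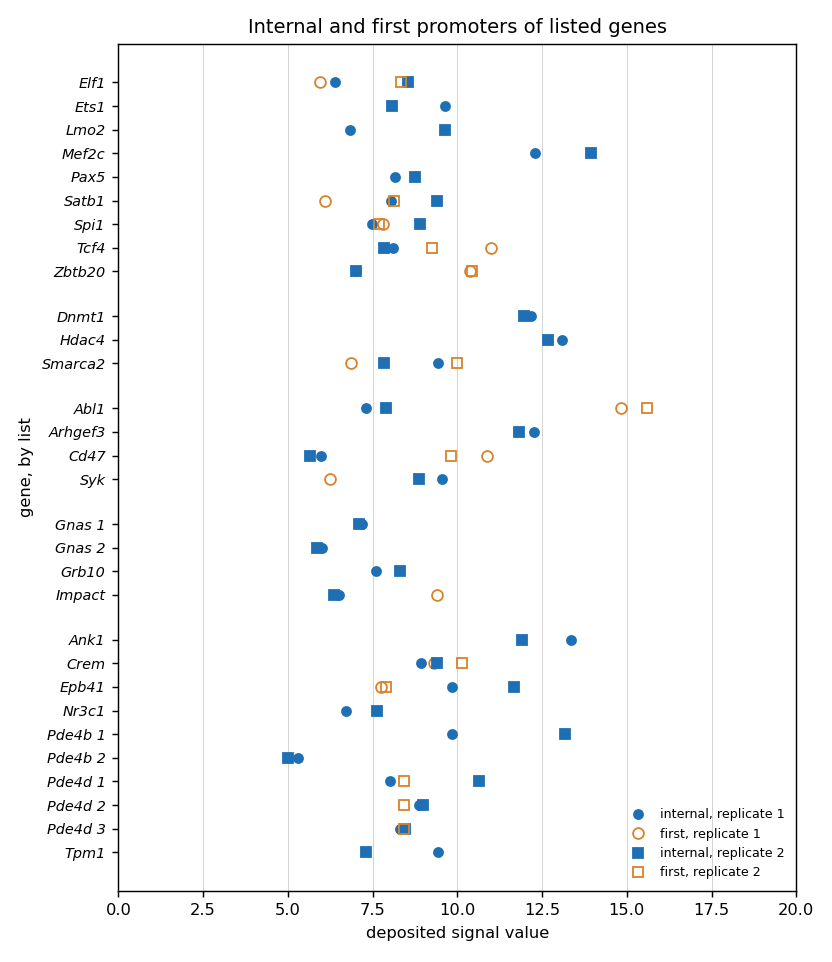
Deposited signal value (x axis) of the open internal promoter (blue, filled) and the first promoter (orange, open) in replicate 1 (circles) and replicate 2 (squares) for listed genes (y axis, grouped from top: blood transcription factors, chromatin enzymes, receptors and signalling, imprinted genes, textbook internal promoters). Numbers after a name separate several members of a gene. A missing orange mark means that no first promoter interval was called in the thresholded list of that replicate. Mef2c, Dnmt1 and Hdac4 stand at 12.0 to 13.9 with none, while Abl1, Cd47, Tcf4 and Zbtb20 have the higher values at the first promoter.

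Members just inside the distance limit and intervals just outside it had values in the same range. The nearest inside were Ift46 at 5.00 kb (11.8 and 14.9), Abhd4 at 5.04 kb (10.1 and 12.2) and Eif4g1 at 5.09 kb (6.65 and 6.42). The nearest outside were Pef1 at 4.998 kb (11.4 and 9.80), Park7 at 4.95 kb (6.53 and 6.89) and Asl at 4.95 kb (10.1 and 12.6). In 8 members (1.21%) the 31 bases at the summit occurred at more than 1 place in the genome, and 34 summits (5.14%) lay on a base masked as repeat. All 661 members were also in the series-level conservative list, and 660 in the series-level thresholded list. These lists were made from both libraries together, so this is no separate support. The same shares were 99.93% and 99.92% of first promoter intervals, and 99.88% and 99.69% of gene body intervals.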

How the data were processed

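ATAC-seq peak lists of 2 replicates were used, in the mm10 assembly. Per the file headers and deposited notes, a uniform pipeline made them, and each peak has a deposited signal value (column 7 of the narrowPeak format) as the authors' peak caller gave it; the sources used here name no aligner, caller or treatment of read ends. The thresholded lists keep peaks of reproducible rank (irreproducible discovery rate), and the pseudoreplicated lists are less strict. Lines with the same interval were counted once, at the strongest summit, on assembled chromosomes. Overlap meant at least 1 bp; the first promoter intervals of the replicates need not overlap each other.

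TSSs came from GENCODE mouse release M21 and sequence from RefSeq GRCm38.p6. Internal TSSs were starts of protein-coding transcripts; first TSSs used transcripts of any type. Reference transcripts are those with an APPRIS principal tag. Internal protein lengths used transcripts without a 5′ incomplete tag. Promoters of the cell type markers counted any start of the gene. Shares carry exact Clopper-Pearson intervals at 95%, which cover counting only. Scripts used Python 3.11.15, pandas 2.3.3, numpy 2.4.6, scipy 1.17.1 and matplotlib 3.10.9, and the rule was tested on simulated intervals.

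Named genes were the 10 members of highest mean percentile without and the 10 with an open first promoter, and every member in 5 gene lists. The name Arhgap and the name Spna1 in those lists matched no gene. Trim28, some genes with several members and the genes nearest the distance limit were named as well. Values of a few named genes were left out of the text. The members and lists were chosen with earlier results of these data known. Printed windows were cut to their longest stretch outside annotated exons and left out when under 60 bases. Alternatives for the overlap, summit, reach, distance, start sets, lists and replicates were listed first; leaving out members by reference start, repeated summit or shared first start was added after the data had been seen.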

Additional observations from a re-analysis of the deposited data

How the results depend on the processing

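Counts kept within 1.5 times of 661 intervals and 601 genes under 14 of 19 alternatives each. They rose to 1393 and 1099 with the less strict lists, 1060 and 902 with the series-level thresholded list and 1222 and 1013 with the series-level conservative list. They fell to 306 and 305 with the 50% strongest intervals, and to 359 and 330 without members whose reference transcript starts only at the internal promoter; fewer intervals enter these by construction. Each replicate alone gave 776 to 818 intervals and 692 to 713 genes. The share of genes with the first promoter open in both replicates (33.6%) was 54.6%, 47.1%, 50.5% and 19.7% with these 4 lists in the same order, 38.2% with a reach of 2000 bp, 40% without the members by reference start, 28.3% without shared first starts, and 36.4% to 38.6% without replicate 1 or replicate 2. The share with none in either (57.6%) was correspondingly 37.3%, 52.9%, 49.5%, 72.5%, 53.3%, 50%, 63.2% and 61.4% to 63.6%. With a series-level list or without a replicate there is only a single list. There both shares mean presence in or absence from that list, not from both replicates. The median percentile (54.6) was 57.5 and 51.8 with reaches of 500 and 2000 bp, 52.5 with starts of transcripts of any type, 79.3 with the strongest intervals and 46.5 to 48.6 without either replicate. The CpG-rich share (46.6%) was 50.8% and 41.0% with these reaches, 41.8% beyond 10 kb, 34.5% with transcripts of any type, 42.6% with first starts from coding transcripts, 50.7% with the strongest intervals, 40.8% within 500 bp of the summit and 43.2% to 44.4% without either replicate. Beyond these constructions the cause was not tested. No paired analysis was possible because the series has 1 group. Read depth is unknown, so a promoter that was not called may be open below the threshold.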
